A study of Mus musculus with 20 samples.

Results

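The genes described here are 43 genes of DNA replication and S phase, taken as a fixed list of symbols out of the 46078 Ensembl genes of the deposited table. The list names symbols and applies no threshold on a measured value, but it was drawn up with earlier results of these data known. It holds 10 genes of origin licensing and the helicase (Orc1, Orc6, Cdc6, Cdt1, Mcm2 to Mcm7), 4 of helicase activation (Mcm10, Cdc45, Gins1, Gins2) and 7 polymerase and primase subunits (Pola1, Pola2, Prim1, Prim2, Pold1, Pold3, Pole). A further 10 encode the sliding clamp, its loader, the single-strand binding proteins and the enzymes that join Okazaki fragments (Pcna, Rfc2 to Rfc5, Rpa1 to Rpa3, Fen1, Lig1), and 5 encode enzymes of deoxynucleotide supply (Rrm1, Rrm2, Tyms, Tk1, Dut). The last 7 are Chaf1a, Chaf1b and Slbp of chromatin assembly and histone mRNA, the E-type cyclins Ccne1 and Ccne2, Tipin of the fork protection complex and the mismatch repair gene Msh6. All 43 were expressed above the filter of a mean of 1 TPM (TPM, a read level corrected for gene length and scaled to the same total in every library) and were tested, among 14176 genes in all.

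A cell licenses its replication origins in G1, when the origin recognition complex with Cdc6 and Cdt1 loads the MCM2-7 ring onto DNA. Cyclin E and its kinase partner then favour entry into S phase, the ring is activated by Cdc45 and the GINS complex, and polymerases copy the DNA behind the fork. Ribonucleotide reductase, made of Rrm1 and Rrm2 subunits, supplies deoxynucleotides, and many of these genes are transcribed in late G1 and S phase under E2F factors, so that in bulk RNA their level depends on the share of cells in cycle as well as on regulation.

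The study compared blood stem and progenitor cells of mice that carry mutations in genes recurrently mutated in myeloid leukaemia, with 4 libraries in each of 5 groups. In 3 groups the mice carried a loxP-stop-loxP mutant allele, Idh1R132H/+, Idh2R140Q/+ or Idh2R172K/+, switched on by Vav-Cre, a recombinase driven by a blood-lineage promoter, and so active through the blood system and not in stem cells alone. The Tet2-/- label names no Cre and does not state which exons were removed, and the WT controls also carried Vav-Cre. The strain was C57Bl/6J and the age 3 to 4 months. A library stands for 2 mice pooled, and the cells came from bone marrow, sorted as Lin-cKit+Sca1+ (LSK), a fraction that holds stem cells and multipotent progenitors.

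Depth recovered from the TPM values was 35.2 to 45.04 M assigned reads a library (M, 1000000). Kit, a marker of the sort, was at 334 to 636 TPM in 19 libraries and at 97.9 TPM in Tet2-/- replicate 2. Ly6a, which encodes Sca1, lay between 115 and 350.2 TPM in all 20, and transcripts of mature T and B cells such as Cd3e, Ms4a1 and Pax5 stayed at or below 1.08 TPM, while Cd79b and Nkg7, of the same mature B and T or NK cell lists, reached 100.6 and 973 TPM. Idh2 was 887 to 1024 TPM in Idh2R172K/+ pools, 474 to 621 TPM in Idh2R140Q/+ pools and 470 to 647 TPM in WT pools. Summed gene values do not resolve a point mutation or a removed exon, so they do not check the labels. Idh1 was 83.3 to 122 TPM in Idh1R132H/+ and 74.3 to 102 TPM in WT pools, and Tet2 was 5.74 to 12.1 TPM in Tet2-/- and 6.67 to 9.23 TPM in WT pools.

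A single Tet2-/- library and a set of 4 libraries stood apart. In Tet2-/- replicate 2 the noncoding RNA Gm23935 took 20.0% of all TPM, against 9.57 to 10.9% in the other Tet2-/- pools, and the 43 genes summed to 4468 TPM, against 6173 to 6928 TPM in the other 3. Gm23935 took 7.55 to 8.13% in the libraries numbered 4 of Idh1R132H/+, Idh2R140Q/+, Idh2R172K/+ and WT, and 11.0 to 13.5% in the libraries numbered 1 to 3 of these groups. The 43 genes reached their highest sums of these groups in number 4 of Idh1R132H/+, at 8050 TPM, and of WT, at 7878 TPM. Results that rest on these libraries are given with and without them.

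**Figure D1:**
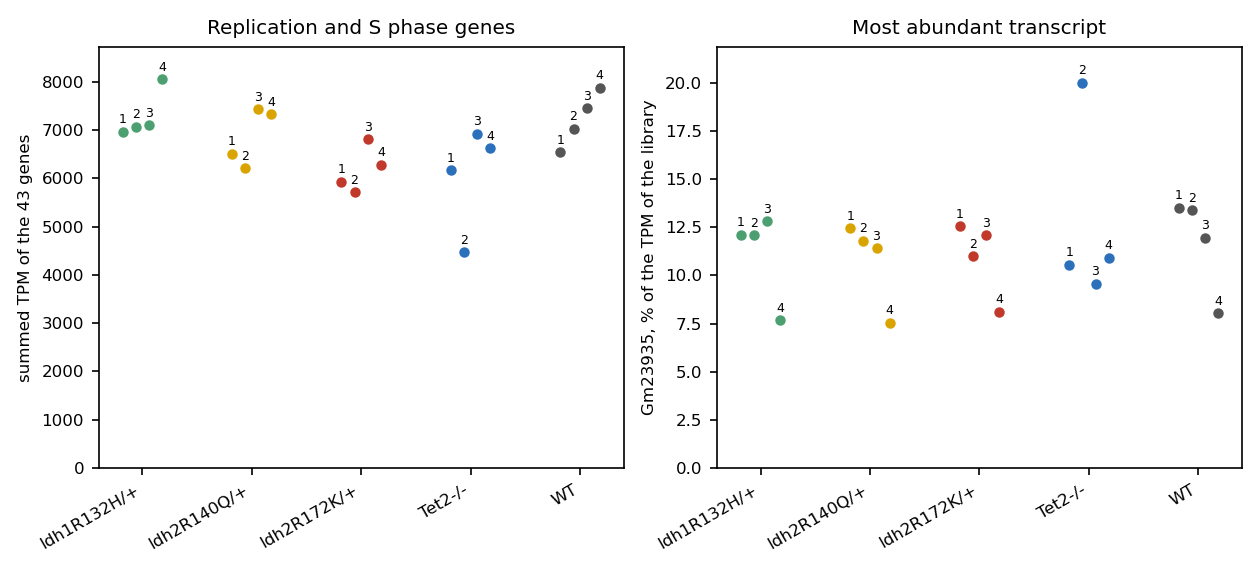
Summed TPM of the 43 replication and S phase genes (left) and the share of TPM taken by Gm23935 (right) in each of the 20 libraries, with the pool number beside each dot. Tet2-/- replicate 2 has the lowest sum, 4468 TPM, and the highest Gm23935 share, 20.0%.

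The 43 genes ranged in mean level over all libraries from 13.4 TPM for Fen1 to 611 TPM for Mcm6, and the 6 subunits of the MCM2-7 ring held 6 of the 8 highest places together with Rrm1 and Tipin. Summed over the list they took 0.571 to 0.681% of all TPM in Idh2R172K/+, 0.447 to 0.693% in Tet2-/-, 0.697 to 0.805% in Idh1R132H/+, 0.621 to 0.743% in Idh2R140Q/+ and 0.655 to 0.788% in WT pools. The spread between pools of a group, as the median over genes of the SD in percent of the mean, was 10.0% in Idh2R172K/+, 16.9% in Tet2-/-, 8.45% in Idh1R132H/+, 10.9% in Idh2R140Q/+ and 9.56% in WT. Chaf1a had the widest spread in Idh2R172K/+ at 41.7%, and Tyms the narrowest in WT at 0.698%.

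**Figure D2:**
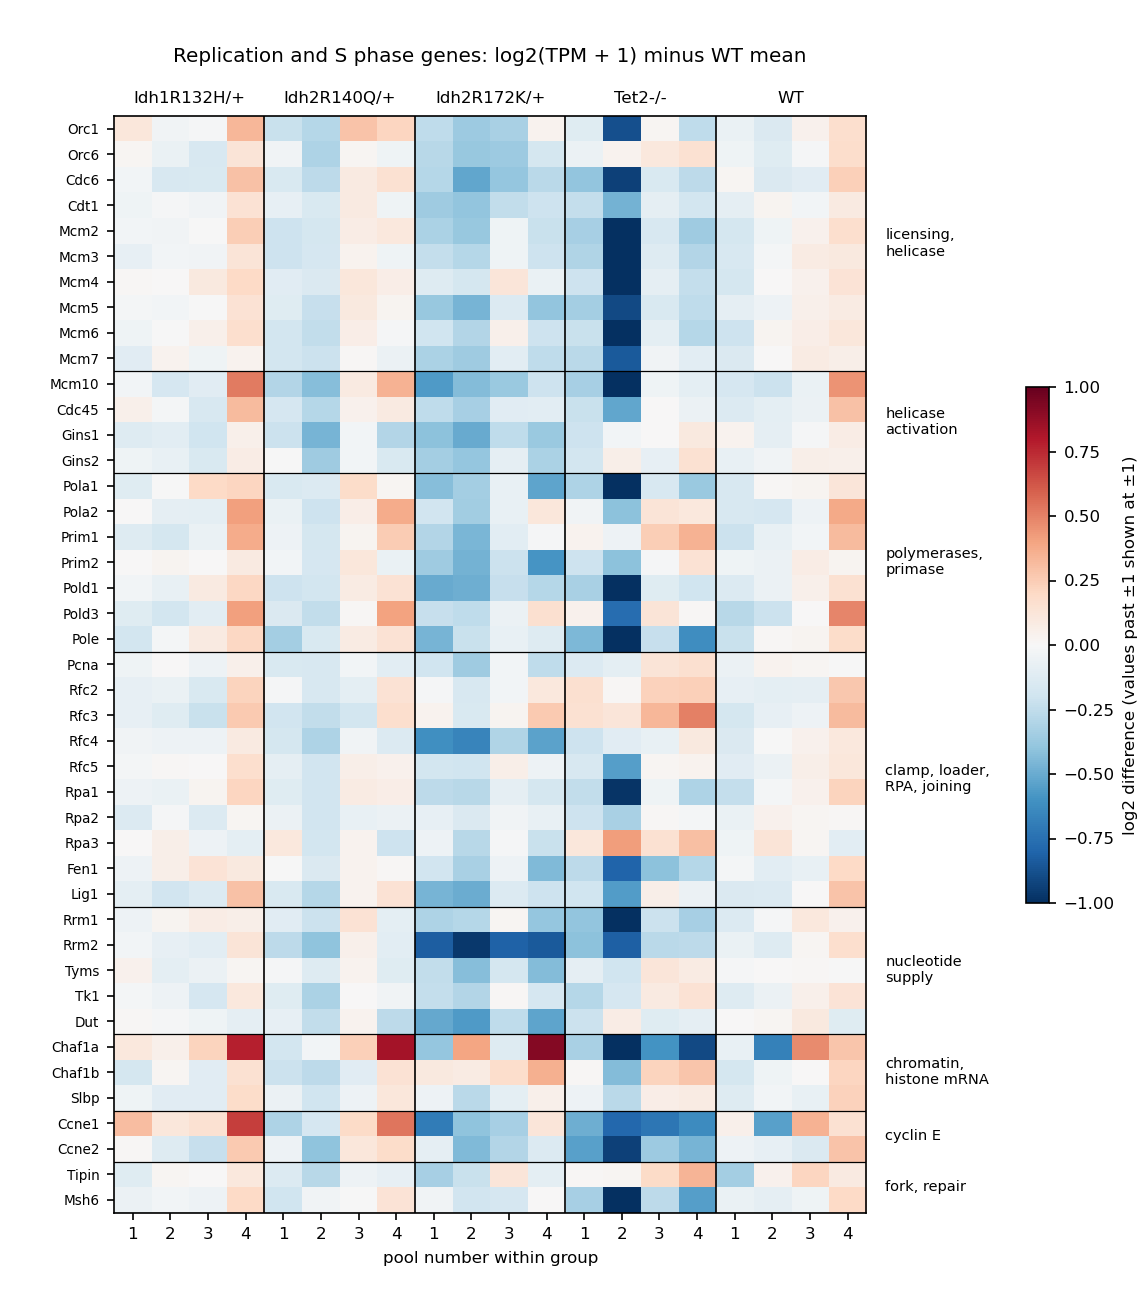
Each of the 43 genes (rows, ordered by role) in each library (columns, by group and pool number) as log2(TPM + 1) minus the WT mean, in blue where lower and red where higher. Rrm2 is blue in all 4 Idh2R172K/+ pools, the column of Tet2-/- replicate 2 has the lowest median, -0.56, and the libraries numbered 4 of Idh1R132H/+, Idh2R140Q/+ and WT are red for Pold3, Mcm10 and Prim1.

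In Idh2R172K/+ cells 8 replication genes fell relative to WT and none rose. The largest fall was that of Rrm2, the regulated small subunit of ribonucleotide reductase, which was 45.2% lower in mean TPM, and 3 of the 5 genes of nucleotide supply fell (Rrm2, Dut, Tyms). The others were the clamp loader subunit Rfc4, the GINS subunit Gins1, the primase subunit Prim2, and the licensing genes Cdt1 and Orc6. Called here means an adjusted p under 0.05 in limma over all 14176 genes, of which 7.33% were called lower and 8.03% higher in this comparison. Of all 2177 calls 1138 were higher, against 3144 of 4641 without the 5 libraries that stand apart, 2958 of 4586 with library weights and 1223 of 2775 with median-of-ratios scaling. The median log2 difference of the 43 genes was -0.23, against 0.11 over all genes tested, and 40 of the 43 lay below 0. In bulk RNA of a sorted fraction, fewer cells of a type and less RNA per cell cannot be told apart.

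Rrm2 stood at 124, 112, 125 and 122 TPM in Idh2R172K/+ pools, against 209.5, 201, 223 and 247 TPM in WT pools. Its level in the other groups was 216, 208, 204 and 240.3 TPM in Idh1R132H/+, 183, 166, 227 and 204 TPM in Idh2R140Q/+ and 165, 124, 182 and 183 TPM in Tet2-/- pools. Every Idh2R172K/+ pool lay below every WT, Idh1R132H/+ and Idh2R140Q/+ pool, and the Idh2R172K/+ pools differed among themselves by less than the WT pools did. The log2 difference between Idh2R172K/+ and WT was -0.86 ± 0.12 (SE; adjusted p = 3.77e-05 in limma, n = 4 each).

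Rrm1 encodes the large subunit, which is needed in equal parts with Rrm2 in the working enzyme. It was the most abundant gene of nucleotide supply and had 369.7, 376, 465 and 349 TPM in Idh2R172K/+ pools, against 417, 454, 493 and 471 TPM in WT pools. The groups overlapped, and the difference of -0.24 ± 0.18 was not called (adjusted p = 0.412 in limma). Its error is drawn from the spread in all 5 groups. The SD of Rrm1 was 13.1% of the mean in Idh2R172K/+, 7.05% in WT and 31.1% in Tet2-/- pools. Elsewhere Rrm1 had 442, 468, 482 and 477 TPM in Idh1R132H/+, 423, 394, 505 and 427 TPM in Idh2R140Q/+ and 347, 173, 394 and 363 TPM in Tet2-/- pools, with Tet2-/- replicate 2 far below the rest. The ratio of Rrm2 to Rrm1 TPM was 0.269 to 0.351 in Idh2R172K/+ pools and 0.443 to 0.525 in WT pools, with no overlap.

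Dut, the enzyme that removes dUTP and so keeps uracil out of DNA, had 131.998, 127, 158 and 130.5 TPM in Idh2R172K/+ pools, against 188, 191, 202 and 173 TPM in WT pools. The other groups had 189.6, 187, 182 and 177 TPM in Idh1R132H/+, 178, 158, 193 and 157 TPM in Idh2R140Q/+ and 162, 198, 173 and 177 TPM in Tet2-/- pools. Idh2R172K/+ pools lay below all WT pools, and the difference was -0.46 ± 0.09 (adjusted p = 0.000966 in limma). Tyms, thymidylate synthase, which makes dTMP from the dUMP that Dut yields, had 56.8, 50.1, 59.7 and 49.7 TPM in Idh2R172K/+ pools, against 67.1, 67.9, 68.2 and 67.5 TPM in WT pools. The Idh2R172K/+ pools again lay below all WT pools, which lay close together, and the difference was -0.32 ± 0.08 (adjusted p = 0.0126 in limma). Tyms in the other groups was 69.6, 63.3, 64.8 and 68.7 TPM in Idh1R132H/+, 67.0, 61.8, 69.3 and 62.2 TPM in Idh2R140Q/+ and 63.6, 58.9, 73.6 and 71.6 TPM in Tet2-/- pools. The fifth gene of this role, the thymidine salvage kinase Tk1, averaged 49.0 ± 4.82 TPM in Idh2R172K/+ and 55.3 ± 4.56 TPM in WT (SD, n = 4 each), a difference of -0.17 ± 0.11 that was not called.

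Of the 10 genes of the clamp, clamp loader, single-strand binding and fragment joining, Rfc4 alone passed. Rfc4, a small subunit of the replication factor C clamp loader, had 83.1, 80.3, 104 and 87.6 TPM in Idh2R172K/+ pools, against 115, 127, 131.6 and 137 TPM in WT pools. Its other levels were 125, 123, 123 and 135 TPM in Idh1R132H/+, 113, 103, 125 and 116 TPM in Idh2R140Q/+ and 110.4, 118, 121 and 137 TPM in Tet2-/- pools, so that the Idh2R172K/+ pools overlapped with those of Idh2R140Q/+ and lay below all others. The difference from WT was -0.53 ± 0.09 (adjusted p = 0.000477 in limma). None of its 3 listed partners in the complex was called: Rfc2 differed by -0.02 ± 0.10, Rfc3 by 0.04 ± 0.14 and Rfc5 by -0.09 ± 0.11 on the log2 scale. Rfc2 shares 15.1% of its exon bases with Lat2 on the other strand. Rfc4 shares 12.7% of its exon bases with Eif4a2 on the opposite strand, and the strand setting of the counting is not given in the sources used here, so reads of the 2 genes in that stretch cannot be told apart.

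The sliding clamp Pcna, the most abundant gene of this role, had 225, 202, 253 and 216 TPM in Idh2R172K/+ pools, against 248, 265, 263 and 258 TPM in WT pools. One Idh2R172K/+ pool lay within the WT range, and the difference of -0.21 ± 0.08 missed the threshold (adjusted p = 0.0778 in limma). Pcna had 251, 259.5, 249.5 and 268 TPM in Idh1R132H/+, 232, 231, 253 and 240.2 TPM in Idh2R140Q/+ and 235, 241, 282 and 289 TPM in Tet2-/- pools. The single-strand binding genes Rpa1, Rpa2 and Rpa3 differed by -0.20 ± 0.15, -0.08 ± 0.07 and -0.14 ± 0.09, the flap endonuclease Fen1 by -0.25 ± 0.12 and the ligase Lig1 by -0.33 ± 0.15, and none was called. The annotation names 2 Pcna pseudogenes, Pcna-ps1 and Pcna-ps2, so reads of Pcna may be split among copies.

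Gins1, a subunit of the GINS complex that activates the MCM ring, had 48.8, 45.6, 54.4 and 50.1 TPM in Idh2R172K/+ pools, against 66.7, 61.2, 64.6 and 68.6 TPM in WT pools. The groups did not overlap, and the difference was -0.39 ± 0.10 (adjusted p = 0.00976 in limma). Gins1 had 59.6, 60.5, 56.7 and 67.6 TPM in Idh1R132H/+, 55.9, 46.9, 64.0 and 53.2 TPM in Idh2R140Q/+ and 56.3, 64.0, 65.2 and 70.0 TPM in Tet2-/- pools. Its partner Gins2 differed by -0.28 ± 0.10 with no overlap between the groups and missed the threshold (adjusted p = 0.0705), and 67.3% of its exon bases are shared with Gse1 on the other strand. Cdc45, the most abundant gene of helicase activation, had 86.7, 81.7, 95.3 and 96.0 TPM in Idh2R172K/+ pools, against 94.0, 96.4, 99.1 and 127 TPM in WT pools. It overlapped between the groups, as did Mcm10, and their differences of -0.20 ± 0.13 and -0.39 ± 0.24 were not called. Cdc45 had 107, 102, 92.6 and 129 TPM in Idh1R132H/+, 91.8, 84.5, 107 and 110.4 TPM in Idh2R140Q/+ and 88.5, 71.9, 103 and 99.4 TPM in Tet2-/- pools.

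In licensing, the loader Cdt1 had 124, 120.4, 134 and 137 TPM in Idh2R172K/+ pools, against 149, 162, 156 and 169 TPM in WT pools, and no pool of one group reached the other. The difference was -0.30 ± 0.08 (adjusted p = 0.0200 in limma), and the other groups had 154, 157, 155 and 176 TPM in Idh1R132H/+, 150.2, 143, 169 and 154 TPM in Idh2R140Q/+ and 135, 114, 149 and 139.5 TPM in Tet2-/- pools. Orc6, the smallest subunit of the origin recognition complex, had 78.1, 72.7, 73.2 and 83.7 TPM in Idh2R172K/+ pools, against 92.1, 87.2, 93.7 and 107 TPM in WT pools. These groups also lay apart, and the difference was -0.30 ± 0.09 (adjusted p = 0.0319 in limma). Orc6 had 95.9, 90.5, 84.9 and 103 TPM in Idh1R132H/+, 92.5, 76.5, 96.0 and 92.2 TPM in Idh2R140Q/+ and 91.1, 97.0, 102 and 105 TPM in Tet2-/- pools. Orc1 and the loading factor Cdc6 differed by -0.23 ± 0.18 and -0.37 ± 0.15 and were not called.

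The 6 subunits of the MCM2-7 ring were not called in Idh2R172K/+ cells, with differences between -0.06 ± 0.18 (Mcm4) and -0.35 ± 0.13 (Mcm5, SE). Mcm6, the most abundant of all 43 genes, had 574, 537, 680.2 and 570.4 TPM in Idh2R172K/+ pools, against 569.6, 669.7, 691 and 712 TPM in WT pools. The pools overlapped, with 3 of the 4 Idh2R172K/+ pools inside the WT range, and the difference was -0.16 ± 0.15 (adjusted p = 0.530 in limma). Mcm6 in the other groups was 638, 656, 680.4 and 738 TPM in Idh1R132H/+, 579, 555, 689.8 and 654 TPM in Idh2R140Q/+ and 564, 313, 614 and 541 TPM in Tet2-/- pools. Mcm5 came closest to the threshold (adjusted p = 0.0721 in limma), and its Idh2R172K/+ pools, at 369 to 464 TPM, lay below its WT pools, at 481 to 542 TPM. The summed level of the 6 subunits was 2311 to 2852 TPM in Idh2R172K/+ and 2600.3 to 3137 TPM in WT pools. Mcm7 shares 12.6% of its exon bases with other genes.

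Of the polymerases and primase, Prim2, the large primase subunit, fell. Prim2 had 24.8, 22.8, 27.4 and 21.01 TPM in Idh2R172K/+ pools, against 31.1, 30.7, 33.8 and 32.7 TPM in WT pools, without overlap, and differed by -0.41 ± 0.11 (adjusted p = 0.0160 in limma). Its level was 32.1, 32.7, 32.2 and 34.1 TPM in Idh1R132H/+, 31.4, 28.4, 34.8 and 30.6 TPM in Idh2R140Q/+ and 27.7, 23.9, 31.8 and 35.5 TPM in Tet2-/- pools. Its catalytic partner Prim1 differed by -0.22 ± 0.15 and was not called. Pold1, the catalytic subunit of polymerase delta and the most abundant gene of this role, had 142, 144, 172.3 and 166 TPM in Idh2R172K/+ pools, against 183, 194, 209 and 224 TPM in WT pools. The groups did not overlap, but the difference of -0.38 ± 0.18 carried a wide error and was not called (adjusted p = 0.178 in limma). That error is drawn from the spread in all 5 groups. The SD of Pold1 was 9.83% of the mean in Idh2R172K/+, 8.82% in WT and 30.7% in Tet2-/- pools. Pold1 had 198, 192, 215 and 234 TPM in Idh1R132H/+, 175, 178, 214 and 224 TPM in Idh2R140Q/+ and 161, 83.4, 186 and 175 TPM in Tet2-/- pools. Pola1, Pola2, Pold3 and Pole differed by -0.34 ± 0.18, -0.12 ± 0.16, -0.10 ± 0.21 and -0.22 ± 0.23.

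The remaining 7 genes were not called in Idh2R172K/+ cells. Chaf1b, a subunit of the chromatin assembly factor that places histones behind the fork, had 76.4, 75.5, 80.8 and 91.5 TPM in Idh2R172K/+ pools, against 63.0, 69.1, 71.7 and 82.8 TPM in WT pools. It was 0.18 ± 0.14 on the log2 scale and one of 3 genes above 0, with Chaf1a (0.20 ± 0.31) and Rfc3. Chaf1b had 62.9, 72.4, 65.9 and 79.4 TPM in Idh1R132H/+, 61.3, 59.4, 65.9 and 78.8 TPM in Idh2R140Q/+ and 72.0, 52.4, 83.6 and 86.8 TPM in Tet2-/- pools. Tipin, the partner of Timeless in fork protection, had 284, 306, 389 and 332 TPM in Idh2R172K/+ pools, against 281, 367, 414 and 379 TPM in WT pools. Those ranges overlapped widely, and in the other groups Tipin had 329, 362, 358 and 383 TPM in Idh1R132H/+, 325, 294, 344 and 337 TPM in Idh2R140Q/+ and 359, 361, 408 and 452 TPM in Tet2-/- pools. The histone mRNA binding gene Slbp differed by -0.09 ± 0.11, Tipin by -0.13 ± 0.12, Msh6 by -0.10 ± 0.24, Ccne1 by -0.33 ± 0.21 and Ccne2 by -0.24 ± 0.15.

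**Figure D3:**
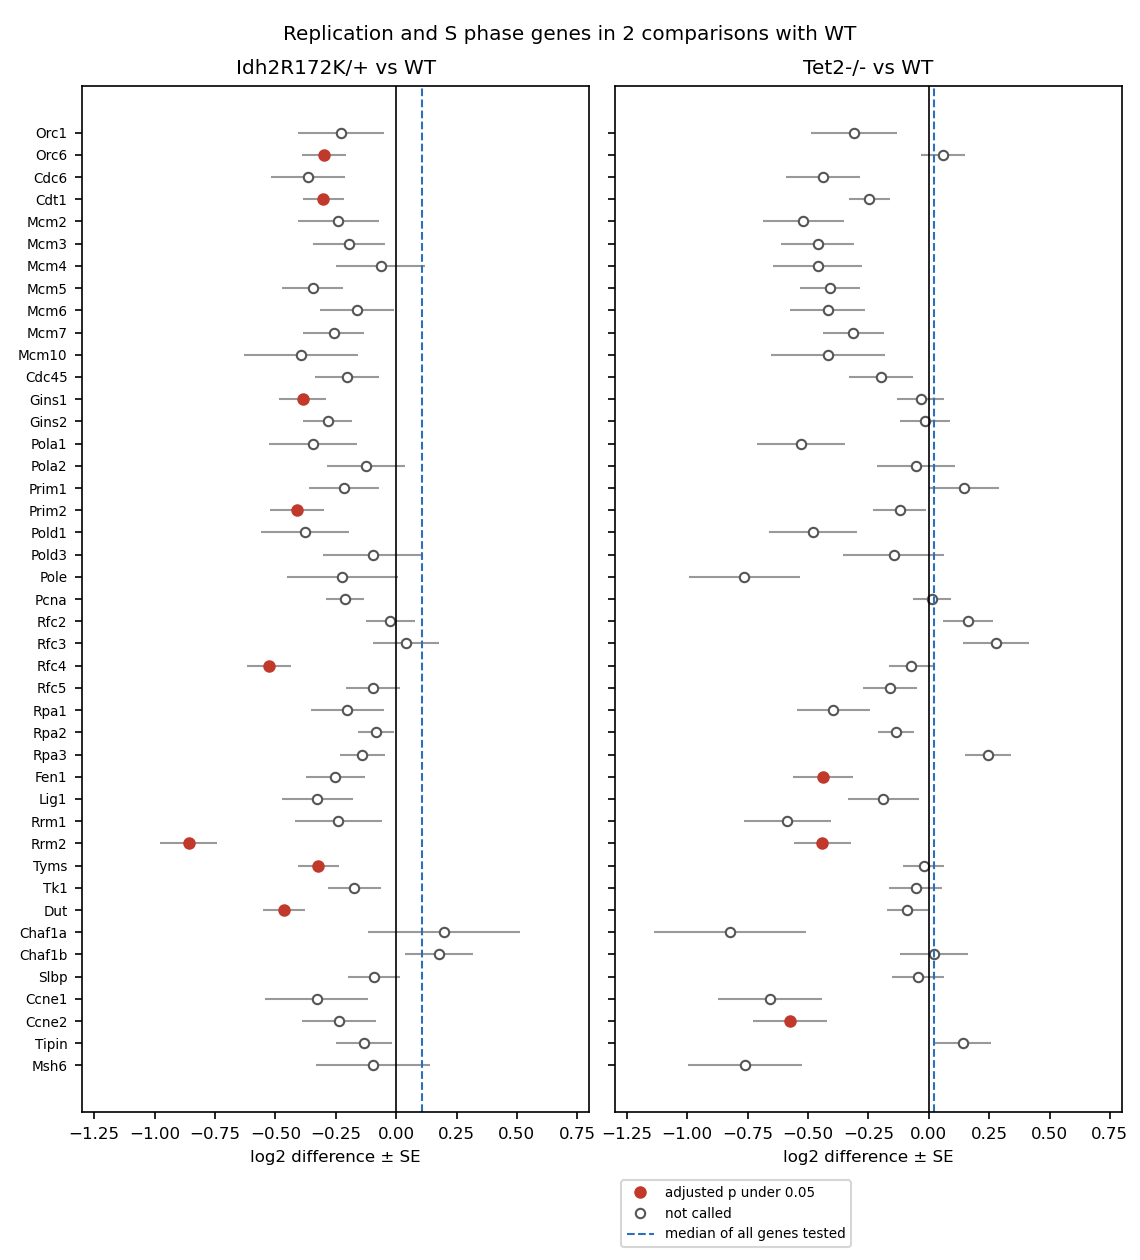
Log2 difference from WT with its SE for each of the 43 genes in Idh2R172K/+ (left) and Tet2-/- (right), with called genes in red and the median of all genes tested as a dashed line. In Idh2R172K/+ the 8 called genes lie between -0.86 and -0.30, and in Tet2-/- Rrm2, Ccne2 and Fen1 are called.

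The 8 calls of Idh2R172K/+ were each kept in all 12 alternatives of scaling, filter or model. When any single library was left out, Rrm2, Rfc4, Dut and Gins1 passed in 8 of 8 fits, Tyms in 7, Prim2 in 5, Cdt1 in 4 and Orc6 in 2, and without Idh2R172K/+ replicate 2 the count was 4. The count was 20 with median-of-ratios scaling and 21 with the trend over gene length removed, an alternative chosen after seeing the data. Calls over all genes also rose in these settings, to 2775 (1223 higher) and 3038 (1277 higher), from 2177 (1138 higher). Without the 5 libraries that stand apart the count of replication genes was 11, with a median of -0.18.

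**Figure D4:**
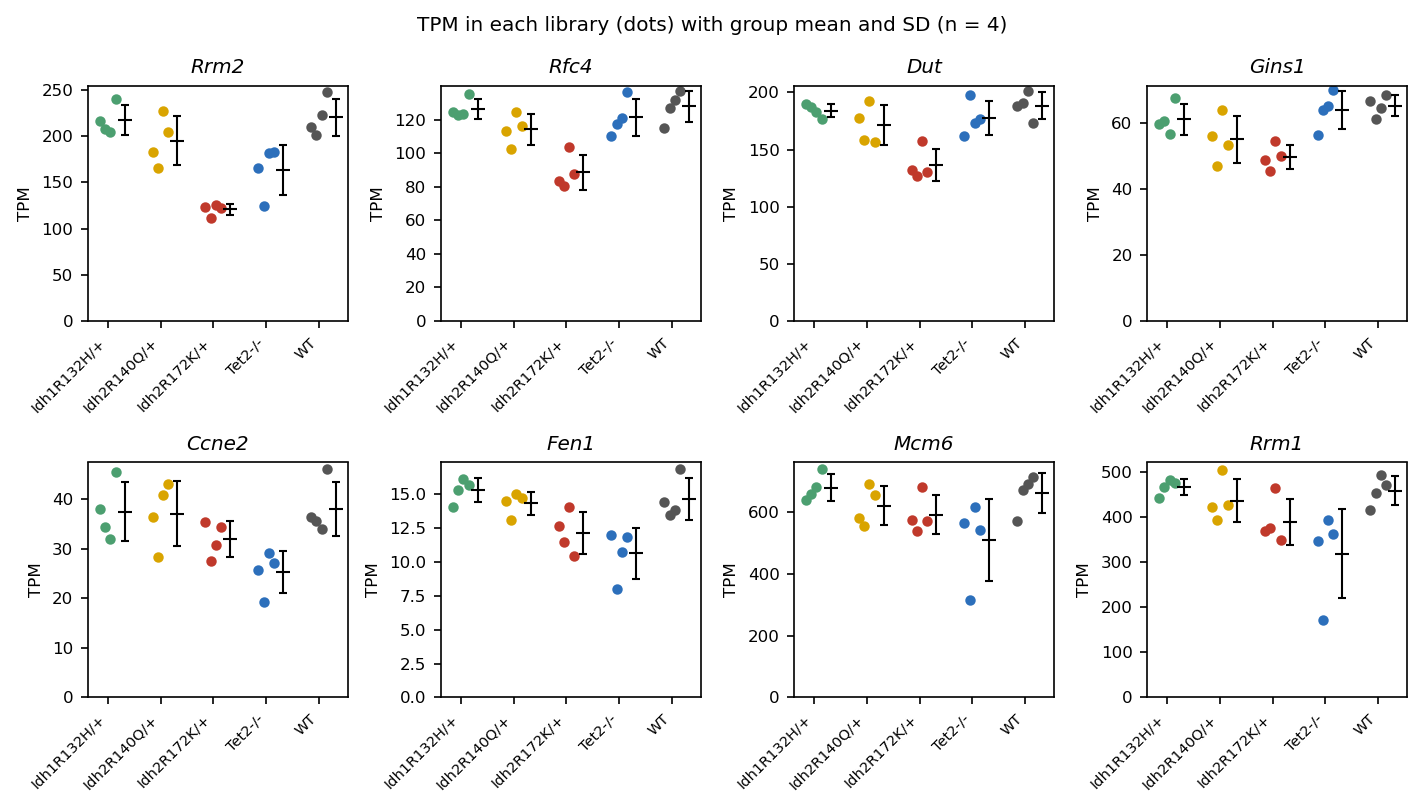
TPM of 8 replication genes in each library (dots, pools 1 to 4 from left to right) with the group mean and SD (n = 4). The Idh2R172K/+ dots lie below the WT dots for Rrm2, Rfc4, Dut and Gins1 and overlap with them for Ccne2, Fen1, Mcm6 and Rrm1.

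Other genes of the same pathways were read from lists chosen with earlier results of these data known. Of 33 other replication factors 3 fell and none rose, with a median of -0.08, against 0.11 over all genes. The share that fell was near the 7.33% of all genes called lower. These were Pold2, the second subunit of polymerase delta (159.6 ± 6.74 TPM in Idh2R172K/+, against 218 ± 6.47 TPM in WT, SD, n = 4 each), Pole2 of polymerase epsilon and Rnaseh2b of the enzyme that removes ribonucleotides from DNA. Among the other genes of nucleotide supply Samhd1, a hydrolase that breaks down deoxynucleotides, rose by 0.39 on the log2 scale (SE 0.10).

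Among 29 regulators of S phase entry 2 fell and 2 rose in Idh2R172K/+ cells, shares near the 7.33% lower and 8.03% higher of all genes. Cyclin D1 (Ccnd1), which drives the exit from G1, averaged 0.854 ± 0.128 TPM in Idh2R172K/+ and 8.52 ± 1.14 TPM in WT (SD, n = 4 each), a difference of -2.35 ± 0.20. Cyclin D2 (Ccnd2) fell by 0.31 (SE 0.10), while Cdk6, the kinase that D-type cyclins bind, rose by 0.45 (SE 0.09) and Tfdp2, a partner of E2F factors, by 0.68 (SE 0.21). Of 5 CDK inhibitors tested Cdkn2d rose by 0.51 (SE 0.07). None of 20 genes of the replication checkpoint and fork repair was called. Of 30 genes of mitosis and G2/M, 1 was called, Mad2l1 of the spindle checkpoint, which fell by 0.36 (SE 0.09). The proliferation marker Mki67 averaged 77.6 ± 8.09 TPM in Idh2R172K/+ and 75.4 ± 8.22 TPM in WT (SD, n = 4 each).

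Markers of progenitor types moved in the same comparison. In Idh2R172K/+ pools 10 of 12 erythroid progenitor genes fell, and their summed level was 723 to 865 TPM, against 1963 to 2243 TPM in WT pools. Of 12 granulocyte-monocyte progenitor genes 7 fell (summed 3586 to 4952 TPM, against 5440 to 8411 TPM in WT), and of 10 lymphoid progenitor genes 6 fell and 1 rose (1387 to 4252 TPM, against 2664 to 3663 TPM in WT). Among stem cell genes Tek and Fgd5 rose and Vwf fell. Ly6a and Flt3 fell among 4 genes of the LSK gate. The other gate genes, Kit and Cd34, were not called, but their Idh2R172K/+ pools lay above all WT pools. Kit was at 541 to 636 TPM, against 335 to 427 TPM in WT, and Cd34 at 564 to 597 TPM, against 463 to 529 TPM in WT. The part of these shifts in the levels of the replication genes was not tested.

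Promoters were looked at because many replication genes share E2F elements and 8 of them fell in the same comparison. Of the 43 genes 35 had a promoter in the RefSeq table (GRCm38.p6, 250 bases before to 50 after the start). The missing genes were Mcm4, Gins1, Gins2, Prim2, Pole, Rfc2, Ccne2 and Tipin. The E2F motif (TTTCCCGC, TTTCGCGC, TTTGCCGC or TTTGGCGC, either strand) was in a listed promoter of 13 of the 35 genes (37.1%), against 2.61% of the 27025 genes in the table. The CCAAT box (CCAAT, either strand) was in 21 of 35 (60.0%), against 41.1%, and the CHR element (TTTGAA or TTCGAA, either strand) in 5 of 35 (14.3%), against 21.7%. Of the 8 genes that fell in Idh2R172K/+ cells 6 had a promoter listed, of which 1 held an E2F motif (Cdt1) and 2 a CCAAT box (Rrm2, Orc6). Shown are the promoters of Rrm2 (chr12:24708004-24708303, plus strand), Dut (chr2:125247265-125247564, plus strand) and Cdt1 (chr8:122567765-122568064, plus strand), which fell, and of Mcm6 (chr1:128359656-128359955, minus strand), which was not called, written 5′ to 3′ along the gene with E2F and CCAAT matches in capitals.
Rrm2: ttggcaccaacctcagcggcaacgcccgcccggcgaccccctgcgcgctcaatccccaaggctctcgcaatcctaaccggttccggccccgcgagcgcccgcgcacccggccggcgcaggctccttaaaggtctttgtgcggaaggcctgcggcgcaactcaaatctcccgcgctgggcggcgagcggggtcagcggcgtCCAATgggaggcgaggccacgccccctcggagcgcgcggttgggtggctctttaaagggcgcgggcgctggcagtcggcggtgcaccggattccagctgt
Dut: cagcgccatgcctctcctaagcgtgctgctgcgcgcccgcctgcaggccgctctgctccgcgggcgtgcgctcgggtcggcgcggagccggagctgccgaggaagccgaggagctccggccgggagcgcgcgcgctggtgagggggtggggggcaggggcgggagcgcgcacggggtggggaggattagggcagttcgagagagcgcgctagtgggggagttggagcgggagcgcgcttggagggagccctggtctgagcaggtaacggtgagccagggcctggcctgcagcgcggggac
Cdt1: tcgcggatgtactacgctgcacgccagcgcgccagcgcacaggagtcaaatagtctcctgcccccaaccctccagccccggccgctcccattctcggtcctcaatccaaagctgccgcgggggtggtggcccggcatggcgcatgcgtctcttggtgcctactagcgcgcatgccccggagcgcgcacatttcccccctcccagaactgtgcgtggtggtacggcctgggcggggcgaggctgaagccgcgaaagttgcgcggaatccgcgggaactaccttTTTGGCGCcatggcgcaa
Mcm6: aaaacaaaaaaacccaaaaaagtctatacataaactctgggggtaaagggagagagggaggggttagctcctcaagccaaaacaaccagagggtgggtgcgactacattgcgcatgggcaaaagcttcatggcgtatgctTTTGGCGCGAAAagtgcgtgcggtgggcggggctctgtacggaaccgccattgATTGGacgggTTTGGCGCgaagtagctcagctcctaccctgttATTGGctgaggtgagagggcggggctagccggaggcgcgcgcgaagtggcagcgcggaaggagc
Rrm2 held 1 CCAAT box, whose first base lay 50 bases before the start site. Dut held none of the motifs searched. Its window, from 125247265, lies wholly inside the annotated gene, which starts at 125247190, so the sequence before that start was not searched. The windows of Cdc6 and Mcm7 also lie inside their annotated genes. Cdt1 held 1 E2F motif after the start site. Mcm6 held 3 E2F matches, of which 2 on opposite strands overlap and begin 110 and 106 bases before the start site, and 2 CCAAT boxes. A match in these letters is a description of the sequence and not a binding site.

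In Tet2-/- cells 3 replication genes fell relative to WT and none rose: Rrm2, Ccne2 and Fen1. Over all genes 2.02% were called lower and 5.02% higher in this comparison. That split depended on scaling: 712 of 999 calls were higher here, against 982 of 2777 with median-of-ratios, 1051 of 2492 with quantile scaling and 1141 of 1906 with rescaled TPM. The median of the 43 genes was -0.20, against 0.02 over all genes, and 35 of 43 lay below 0. Without Tet2-/- replicate 2 all 3 of these calls were lost, Msh6 alone was called, and the median was -0.12, against 0.11 over all genes.

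Rrm2, at 165, 124, 182 and 183 TPM in Tet2-/- pools and 209.5, 201, 223 and 247 TPM in WT pools, was lower in every Tet2-/- pool, with replicate 2 the lowest. It differed by -0.44 ± 0.12 (adjusted p = 0.0329 in limma), and by -0.31 without replicate 2 (adjusted p = 0.0570 in limma). Ccne2, one of the E-type cyclins that pair with Cdk2 at the G1/S boundary, had 25.6, 19.3, 29.2 and 27.1 TPM in Tet2-/- pools, against 36.4, 35.6, 34.0 and 46.1 TPM in WT pools. Every Tet2-/- pool lay below every WT pool, and the difference was -0.58 ± 0.15 (adjusted p = 0.0333 in limma) and -0.46 without replicate 2 (adjusted p = 0.0689). Ccne2 had 38.1, 34.4, 31.98 and 45.6 TPM in Idh1R132H/+, 36.4, 28.3, 40.8 and 43.01 TPM in Idh2R140Q/+ and 35.4, 27.6, 30.7 and 34.3 TPM in Idh2R172K/+ pools. Its exons share 17.4% of their bases with Ints8 on the other strand. Ccne1 averaged 10.2 ± 0.995 TPM in Tet2-/- and 17.0 ± 4.34 TPM in WT (SD, n = 4 each), a difference of -0.66 ± 0.21 that was not called (adjusted p = 0.0666 in limma).

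Fen1, the endonuclease that trims Okazaki fragment flaps, had 11.97, 7.96, 10.7 and 11.8 TPM in Tet2-/- pools and 14.4, 13.4, 13.8 and 16.9 TPM in WT pools. No pool of one group reached the other, and the difference was -0.44 ± 0.12 (adjusted p = 0.0394 in limma) and -0.32 without replicate 2 (adjusted p = 0.0686). Fen1 had 14.1, 15.3, 16.1 and 15.7 TPM in Idh1R132H/+, 14.5, 13.1, 15.0 and 14.7 TPM in Idh2R140Q/+ and 12.7, 11.5, 14.0 and 10.4 TPM in Idh2R172K/+ pools. Of its exon bases 84.2% are shared with Tmem258 and Gm10143 on the opposite strand, so with the strand setting unknown the reads of these genes cannot be told apart.

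The log2 differences of the MCM2-7 genes between Tet2-/- and WT pools lay between -0.52 and -0.31 and none was called, the closest being Mcm5 (-0.41 ± 0.13, adjusted p = 0.0543 in limma). Without replicate 2 the differences of the MCM2-7 genes lay between -0.28 (Mcm2) and -0.14 (Mcm7). Their summed level was 1390 TPM in Tet2-/- replicate 2 and 2394 to 2687 TPM in the other 3 Tet2-/- pools, against 2600.3 to 3137 TPM in WT pools. Rrm1 differed by -0.59 ± 0.18 with no overlap and was not called, and by -0.32 without replicate 2. The 5 genes most above WT, none of them called, were Rfc3 (0.28 ± 0.14), Rpa3 (0.25 ± 0.09), Rfc2 (0.16 ± 0.10), Prim1 (0.15 ± 0.15) and Tipin (0.14 ± 0.12). Without replicate 2 they differed by 0.33, 0.19, 0.21, 0.21 and 0.18 in the same order. Chaf1b differed by 0.17 without replicate 2 and by -0.44 in replicate 2.

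How far a gene stood from WT in Tet2-/- replicate 2 went with its length. Across the 43 genes, which are not independent replicates, the correlation of the difference with log2 exon length was -0.57 in that library and lay between -0.36 and 0.46 in the other 19. Rpa3, with 1136 exon bases, differed from the WT mean by 0.42 in it, and Pole, with 11160, by -1.76 on the log2 scale, while the mean of the other 3 Tet2-/- pools differed by 0.19 for Rpa3 and by -0.43 for Pole. The ratio of Rrm2 to Rrm1 was 0.718 in Tet2-/- replicate 2 and 0.462 to 0.502 in the other 3, against 0.443 to 0.525 in WT pools.

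**Figure D5:**
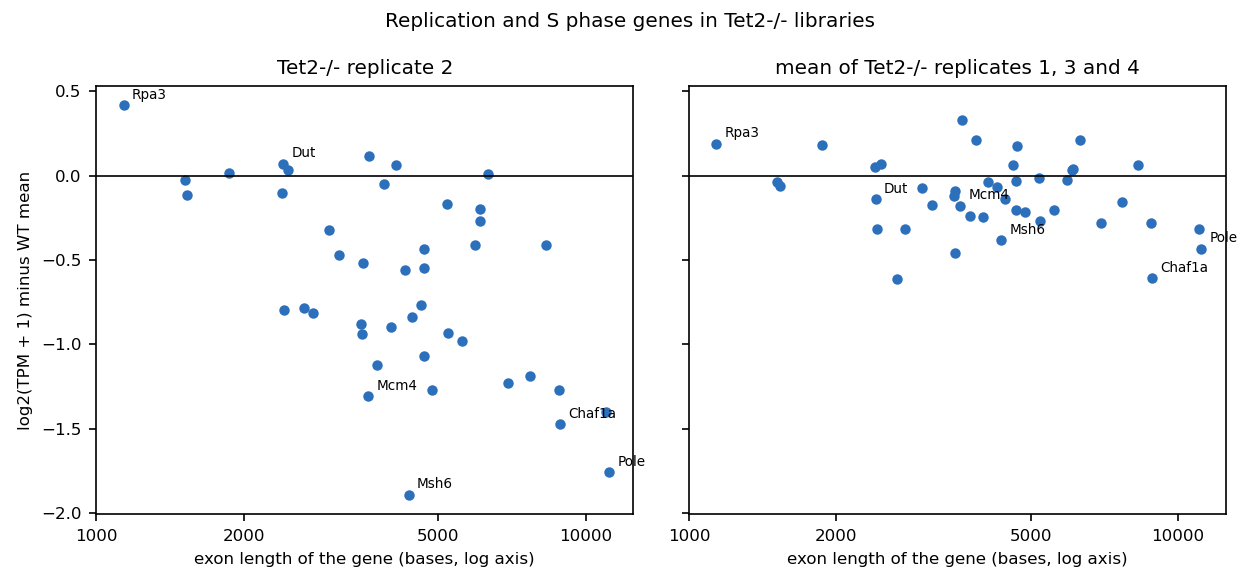
Difference of log2(TPM + 1) from the WT mean for each of the 43 genes against exon length (log axis), in Tet2-/- replicate 2 (left) and as the mean of the other 3 Tet2-/- pools (right). In replicate 2 short genes such as Rpa3 lie near or above 0 and long genes such as Pole far below it.

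The number of called genes in Tet2-/- cells moved strongly with the processing. It was 0 without a filter, in the fit of the 2 groups alone and without WT replicate 1, 3 or 4. It was 1 without Tet2-/- replicate 2 or 4, 2 without WT replicate 2, 6 without Tet2-/- replicate 1, 14 without Tet2-/- replicate 3, 21 with median-of-ratios scaling and 18 with quantile scaling. Of those 18, 2 were higher in Tet2-/- (Rfc2 and Rfc3). Without the 5 libraries that stand apart 9 genes were called, of which Prim1, Rfc2, Rfc3 and Chaf1b were higher and Fen1, Rrm1, Ccne1, Ccne2 and Msh6 lower in Tet2-/-. Over all genes 4039 of 4515 calls were higher in that setting, and 4374 of 5231 with library weights.

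Of the other pathway genes in Tet2-/- cells, no replication factor of 33 was called. In nucleotide supply Cad, which starts pyrimidine synthesis, fell by 1.14 (SE 0.24), the purine synthesis gene Gart by 0.63 (SE 0.17) and mitochondrial Shmt2 of one-carbon metabolism by 0.38 (SE 0.10), and Samhd1 rose by 0.37 (SE 0.10). All 4 were also called without replicate 2, where the differences were -0.79 for Cad, -0.38 for Gart, -0.26 for Shmt2 and 0.43 for Samhd1. Of the 29 regulators of S phase entry 3 fell, the S phase cyclin Ccna2 by 0.62 (SE 0.14), Tfdp1, a partner of E2F factors, by 0.64 (SE 0.17) and Ccnd1 by 0.73 (SE 0.20), and without replicate 2 Tfdp1 differed by -0.47 and was not called. Of 5 CDK inhibitors Cdkn1a and Cdkn2d rose and Cdkn2c fell, and Cdkn1a differed by 0.67, against 0.44 without replicate 2, where it was not called. Plk1 and Ccnb1 fell among 30 genes of mitosis. Without replicate 2 Plk1 was called, and Ccnb1, at -0.39 with it, differed by -0.26 and was not. None of 20 checkpoint genes was called. Mki67 averaged 60.8 ± 11.8 TPM in Tet2-/- and 75.4 ± 8.22 TPM in WT (SD, n = 4 each) and was not called.

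Of 12 erythroid progenitor genes 6 fell in Tet2-/- (summed 1481 to 2025 TPM, against 1963 to 2243 TPM in WT), also without replicate 2. Ly6a rose, by 0.79 (SE 0.11), as did the macrophage genes C1qb and C1qc of 7 tested (8 genes summed 175 to 211 TPM in Tet2-/- and 123 to 144 TPM in WT). C1qb rose by 1.09 and C1qc by 0.97 on the log2 scale, and without replicate 2 the differences were 0.98 (adjusted p = 0.0538 in limma) and 0.89 (adjusted p = 0.0825). Among stem cell genes Hoxb5 rose and Vwf fell, also without replicate 2, where Tek (0.63) and Meis1 (0.45) were among further genes called higher. With or without replicate 2, no granulocyte-monocyte (4691 to 6215 TPM in Tet2-/- and 5440 to 8411 TPM in WT) or lymphoid gene (2246 to 3015 TPM in Tet2-/- and 2664 to 3663 TPM in WT) was called. The part of these in the replication genes was not tested. In Idh2R172K/+ and Tet2-/- together, mature cell lists gave 3 further calls, all lower in Idh2R172K/+ (Cd79b, Klrb1c and Cd68), and no mature neutrophil gene of 8 was called in either.

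In Idh1R132H/+ cells no replication gene was called in limma. Over all genes 0.00705% were called, which is 1 gene. The median of the 43 genes was 0.00, against 0.04 over all genes. The smallest p values belonged to Ccne1, at 20.8, 18.002, 18.5 and 27.4 TPM in Idh1R132H/+ pools and 17.2, 11.0, 21.3 and 18.5 TPM in WT pools (0.32 ± 0.21), to Gins1 (-0.10 ± 0.10) and to Rpa2 (-0.07 ± 0.07), each with overlapping groups. For Rrm2 the difference was -0.02 ± 0.12.

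In Idh2R140Q/+ cells none was called either, and 0% of all genes were called. The median was -0.06, against 0.08 over all genes, and 38 of 43 genes lay below 0. Gins1, the gene with the smallest p, had 55.9, 46.9, 64.0 and 53.2 TPM in Idh2R140Q/+ and 66.7, 61.2, 64.6 and 68.6 TPM in WT pools, with replicate 3 within the WT range (-0.25 ± 0.10). Rfc4 followed at -0.16 ± 0.09 and Dut at -0.14 ± 0.09. Idh2R140Q/+ and Idh2R172K/+ are mutations of the same enzyme. Every mutant group was set against the same 4 WT libraries, so these comparisons are not independent of each other. No gene of the 6 pathway lists or the 9 cell type lists was called in Idh1R132H/+ or Idh2R140Q/+ cells.

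Set against each other, Idh2R172K/+ cells were lower than Idh2R140Q/+ cells in Rrm2 (-0.68 ± 0.12), Rfc4 (-0.36 ± 0.09), Dut (-0.32 ± 0.09) and Prim2 (-0.37 ± 0.11), 4 of 43 genes, and higher in none. Over all genes 6.74% were called lower in this comparison, so the share of replication genes was near it. Rrm2 passed in all 20 alternatives (adjusted p = 0.000534 in limma as given), and its Idh2R172K/+ pools lay below its Idh2R140Q/+ pools. With the replicate block, which the pairing of these libraries by number allows, 7 genes were called. Chaf1b was the 1 higher call among 6 with median-of-ratios scaling, 5 with quantile scaling, 7 with library weights, 8 without the 5 libraries that stand apart and 8 with the length trend removed. Without Idh2R140Q/+ replicate 3 or Idh2R172K/+ replicate 2 the count was 1, and without replicate 1 of either group or Idh2R172K/+ replicate 4 it was 2.

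Against Idh1R132H/+ cells, Idh2R172K/+ cells were lower in 7 of 43 genes, Rrm2 (-0.84 ± 0.12), Rfc4, Dut, Prim2, Cdt1, Tyms and Orc6, with 7.32% of all genes called lower. In each of the 7 every Idh2R172K/+ pool lay below every Idh1R132H/+ pool. The 7 were picked by the fit on these same pools, so this describes the calls and adds no test. The blocked fit, also paired by number, called 15. Leaving out Idh1R132H/+ replicate 4 or Idh2R172K/+ replicate 2 left 4 calls.

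Tet2-/- cells were higher than Idh2R172K/+ cells in 8 of 43 genes (Rfc4, Dut, Rpa3, Orc6, Gins1, Tyms, Rrm2 and Pcna) and lower in Chaf1a and Msh6, where 11.9% of all genes were called higher and 14.9% lower. The balance over all genes turned with the libraries used: 1684 of 3803 calls were higher here, against 1818 of 3273 without Tet2-/- replicate 2, 3325 of 4979 without the 5 libraries that stand apart, 3207 of 5273 with library weights and 849 of 1190.0 in the fit of the 2 groups alone. Rpa3, the smallest single-strand binding subunit, was at 127 to 157 TPM in Tet2-/- and 97.0 to 117 TPM in Idh2R172K/+ pools (0.39 ± 0.09). Msh6, the mismatch sensor, was at 63.3 to 198 TPM in Tet2-/- and 208 to 238 TPM in Idh2R172K/+ pools (-0.66 ± 0.24), and the difference was -0.29 without Tet2-/- replicate 2. Chaf1a shares 52.5% of its exon bases with Ubxn6 on the other strand and differed by -1.02 ± 0.31, and by -0.81 without Tet2-/- replicate 2 (adjusted p = 0.0804 in limma). The fit of these 2 groups alone called none of the 43.

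The 43 genes did not follow one another equally. Over the 20 libraries, which share their scaling to TPM, genes outside the list whose log2(TPM + 1) was among the most like the mean of the list were Rad54l (Pearson r = 0.96), Chtf18 (0.95), Ddx39b (0.94) and Fam111a (0.94). Without Tet2-/- replicate 2, over 19 libraries, these were 0.91 to 0.93, and the most like gene was then Psmc3 (0.94). Within the list the genes least like the mean of the others were Rpa3 (-0.20), Rfc3 (0.23), Dut (0.33), Rfc2 (0.38) and Chaf1b (0.42), and without Tet2-/- replicate 2 they were 0.22, 0.36, 0.64, 0.47 and 0.16. These are descriptions of the libraries and not tests.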

How the data were processed

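Total RNA of LSK cells was measured in 20 libraries, 4 pools of 2 mice in each of 5 groups. The submitters' processing notes name Trim Galore, STAR, featureCounts and the build mm10 for the authors' work, and versions, annotation and strand setting are not given in the sources used here. The Idh2R140Q/+ columns are headed IDH1_140Q in the table and were matched through the sample titles. The deposited values are TPM for 46078 Ensembl genes, each library summing to 1000000. For 45229 of these IDs the GENCODE M21 annotation (mm10) gave the symbol, position and summed exon length. Depth, 35.2 to 45.04 M reads (M, 1000000), was recovered from TPM times exon length, with 90.0 to 91.0% of low values (up to 30 reads) whole within 0.1 reads.

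Values were tested as log2(TPM + 1), which understates differences of low genes, with limma 3.58.1 (R 4.3.3). A joint fit held all 5 groups and used a variance trend. The 14176 genes whose mean reached 1 TPM were tested, and their 2-sided p-values were given the Benjamini-Hochberg adjustment. A gene is called at an adjusted p under 0.05. The script was tested on simulated data. There were 7 comparisons. Whether pools of a group differ as separate animals or also technically is not stated beyond their being pools of mice. Tables and figures used Python 3.11.15, pandas 2.3.3, numpy 2.4.6 and matplotlib 3.10.9.

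The members and the 6 pathway and 9 cell type lists (LSK gate, stem cell, erythroid, granulocyte-monocyte and lymphoid progenitor, mature B, T and NK, mature neutrophil, macrophage) were chosen with earlier results of these data known. All 43 members may be named. Values in every library are given for members called against WT and the most abundant member of each role, and up to 4 called genes with the smallest p are named from each pathway list. Same-numbered libraries paired, with deviations from group means correlated over 0.1 in each of 4 pairs, for Idh1R132H/+ and WT (0.18 to 0.49), Idh2R172K/+ and Idh2R140Q/+ (0.21 to 0.53) and Idh2R172K/+ and Idh1R132H/+ (0.17 to 0.48). Alternatives were the pseudocount (0.1), the filter (none, or 5 TPM), 3 scalings, the 2 groups alone, library weights, no variance trend, a replicate block, each library left out, the 5 libraries that stand apart left out and, added later, the length trend removed (lowess, span 0.3). Results for some genes of these lists, and summed levels that rest on them, are not reported here.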

Additional observations from a re-analysis of the deposited data

Results flagged for a closer look

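In each group the highest and the lowest of the 4 pools were set against the other 3 for the 43 genes, their summed TPM and the ratio of Rrm2 to Rrm1, 225 sets in all. A pool was counted where its gap to the nearest other took more of the group's range than Dixon's 95% limit for 4 values, which chance gives in about 1 in 20 groups, and 17 did.

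Of these, 10 were high values of Idh1R132H/+ replicate 4: Cdt1 at 176 TPM (others 154 to 157), Mcm2 at 569 (467 to 476), Mcm5 at 566 (502 to 510), Mcm10 at 40.9 (25.0 to 27.7), Prim1 at 85.8 (58.4 to 63.0), Pold3 at 113 (75.1 to 79.3), Rfc4 at 135 (123 to 125), Rfc5 at 134 (117 to 119), Msh6 at 272 (228 to 233) and the summed TPM at 8050 (6966 to 7096). In WT replicate 4, Cdc45 was 127 TPM (94.0 to 99.1), Rfc2 was 182 TPM (141 to 143) and Msh6 was 273 TPM (222 to 231). These libraries have less Gm23935, 7.66 and 8.03% of TPM, and its part in the values was not tested.

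Rfc3 was 51.4 TPM in Idh2R140Q/+ replicate 4 (38.5 to 40.0 in the others), and Rpa2 was 147 TPM in Idh2R140Q/+ replicate 2 (159.8 to 162). Dut was 158 TPM in Idh2R172K/+ replicate 3 (127 to 131.998), still below all WT pools. Rrm2 per Rrm1 was 0.718 in Tet2-/- replicate 2 (0.462 to 0.502 in the other 3).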

How the results depend on the processing

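No called gene changed sign under any alternative run. Of the counts of replication genes called, that of Idh2R172K/+ against WT (8) was 20 with median-of-ratios scaling, 18 with quantile scaling, 15 with library weights, 21 with the length trend removed and 4 to 10 when 1 library was left out, all lower. That of Tet2-/- against WT (3) was 0 with no filter and with the 2 groups alone, 21 with median-of-ratios scaling, 18 with quantile scaling, 16 with TPM rescaled without mitochondrial, histone and the top 20 genes, 14 (4 higher) with library weights, 18 (1 higher) with the length trend removed, 9 (4 higher) without the 5 libraries that stand apart and 0 to 14 with 1 library left out. That of Tet2-/- against Idh2R172K/+ (10) was 18, 16, 0, 17 and 16 with quantile scaling, rescaled TPM, the 2 groups alone, library weights and without the 5 libraries, and 6 to 12 with 1 left out. Its median (-0.05) was 0.17 with library weights and 0.16 without the 5 libraries. That of Idh2R172K/+ against Idh2R140Q/+ (4) was 1 with the 2 groups alone, 7 with library weights, 8 without the 5 libraries, 8 with the length trend removed and 1 to 5 with 1 left out. That of Idh2R172K/+ against Idh1R132H/+ (7) was 17, 14, 12, 19, 12 and 19 with median-of-ratios, quantile, the 2 groups alone, library weights, without the 5 libraries and the length trend removed, and 4 to 9 with 1 left out. Idh1R132H/+ and Idh2R140Q/+ against WT stayed at 0 in all 20. Over all genes, 4374 of 5231 calls of Tet2-/- against WT were higher with library weights and 4039 of 4515 without the 5 libraries. For Idh2R172K/+ against WT, 1185 of 2659 calls over all genes were higher with quantile scaling and 2958 of 4586 with library weights. The causes were not tested.

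With the replicate block the counts were 14 for Idh2R172K/+ against WT, 18 (1 higher) for Tet2-/- against WT and 18 for Tet2-/- against Idh2R172K/+, where the numbers did not pair the libraries (correlations from -0.18 to 0.40, and 4, 2 and 1 of 8 libraries best with their own number), and 7 and 15 for Idh2R172K/+ against Idh2R140Q/+ and against Idh1R132H/+. Idh2R140Q/+ against WT (0.0974 to 0.45, 5 of 8) and Idh1R132H/+ against WT kept 0 with the block.

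The count over all genes for Idh2R172K/+ against WT was 2177, and 4586 with library weights, 4641 without the 5 libraries and 1371 with a mean of at least 5 TPM. For Tet2-/- against WT it was 999, and 5231, 4515 and 517 in the same order, 2777 with median-of-ratios and 2492 with quantile scaling, 1906 with rescaled TPM, 2325 with the length trend removed, 2485 with the replicate block and 45 with the 2 groups alone, and 266 to 1391 with 1 library left out. For Idh2R172K/+ against Idh2R140Q/+ it was 1489, and 2734, 2884 and 894, and 2272 with the length trend removed; against Idh1R132H/+ it was 1918, and 4567, 3815 and 1242.

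With 4 pools a group the differences of the MCM genes carried an SE of 0.13 to 0.18. This SE is drawn from the spread in all 5 groups, which for these genes was widest in Tet2-/- pools. TPM give shares of the library, so an absolute loss of RNA in all genes is not seen.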
